A study of Mus musculus with 12 samples.

Results

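The comparison described here is that of mitotic with asynchronous cells of the S38A line, in which RPL12 carries alanine in place of serine 38. It rests on 4 of the 12 libraries of the series, 2 mitotic and 2 asynchronous, chosen by their labels and by no measured value. RNA was read by 3′ mRNA sequencing, which counts 1 short tag near the end of each polyadenylated transcript. The cells were 19DN, a subline of the mouse B cell lymphoma 19PP from which GFP and hCD2 reporter genes had been removed. The tumour arose in a Rag2-/- γC-/- host given Cγ1-Cre; Myc/P110*flSTOP bone marrow, so all lines share Myc and active PI3K, switched on by a Cre that is expressed in germinal centre B cells. For the mitotic state, S38A cells were held in 100 ng/mL nocodazole over 8 h and, once it was washed out, given 10 min in new medium. The asynchronous libraries were taken, from their label, as S38A cells not held in this way. Cycloheximide at 100 µg/mL was present at collection for all 12 libraries, mitotic and asynchronous. The WT line and the S38D line, with aspartate at this residue, were grown and labelled in the same way, with 2 libraries per state. Mitosis and the nocodazole treatment with its release therefore cannot be told apart in these data. How the RPL12 alleles were made, and whether each line is 1 clone, is not given in the sources used here. Nothing in the labels says that replicates came from separate cultures, so the p-values cover the scatter of these libraries alone, and that scatter may be technical.

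RPL12, also called uL11, sits at the base of the ribosomal stalk together with RPLP0, RPLP1 and RPLP2, where elongation factors dock on the large subunit. Serine 38 is a known phosphorylation site, and alanine at this place cannot accept phosphate. Nocodazole blocks microtubule assembly and holds cells at the spindle checkpoint. Transcription is largely shut down during mitosis and resumes as chromosomes decondense, and growth factor or stress signals turn on a first wave of immediate early genes within minutes. The codons around the mutated residue are shown because they define the line. The run below is the GRCm38 reference for codons 31 to 45 of the mouse gene (chromosome 2, 32962102 to 32962597 with an intron taken out, transcript Rpl12-203, 165 codons), and the capitals mark the serine codon 38 at 32962574 to 32962576.
Rpl12 reference: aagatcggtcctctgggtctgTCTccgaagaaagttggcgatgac
Counts at the 3′ end do not show this codon, so the genotype of each library was taken from its label.

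The S38A libraries held 6587997 and 6046872 gene reads in asynchronous cells and 5603135 and 5594973 in mitotic cells, within a range of 3432875 to 6587997 over the series, and 13672 to 14059 genes had a read. Spike-in RNA, added to a fixed mass of RNA, came to 3.31% and 3.04% of gene reads in the asynchronous and 3.25% and 3.24% in the mitotic libraries. Replicates differed beyond counting error for 19.3% of genes in S38A asynchronous and 21.2% in S38A mitotic cells. Outside the S38A line the 2 replicates stood apart from each other in S38D asynchronous cells (45.3% of genes) and in WT mitotic cells (27.7%), and 2 libraries do not show which of a pair departs. Replicate 1 of both groups was left out together in 1 alternative, chosen with earlier results known. All 12 libraries share the estimate of spread used below, so these groups bear on each S38A p-value.

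Of 10477 genes tested, 704 were called higher in S38A mitotic cells (6.72%) and 844 lower (8.06%), which is 1548 in all (14.8%). A gene was called at a Benjamini-Hochberg adjusted p under 0.05 in edgeR's quasi-likelihood test. At least a 2-fold change was seen for 395 of them, 215 higher and 180 lower, and the median log2 fold change of all genes was 0.01. In each of the 1548 called genes both mitotic libraries lay beyond both asynchronous ones. The same separation was seen upward in 31.6% and downward in 30.8% of all genes tested. The number called depended on the libraries and on the tool. Dropping S38A asynchronous replicate 1 or 2 left 625 or 719, dropping S38A mitotic replicate 1 or 2 left 717 or 647, and DESeq2 called 942. Dropping S38D asynchronous replicate 1 or 2 gave 2453 or 2454. Dropping S38D asynchronous 1 and WT mitotic 1 together gave 2914, with all 704 higher and all 844 lower genes among them. In the paragraphs below, asynchronous 1 or 2 and mitotic 1 or 2 stand for these S38A replicates. Counts of list members called in S38A are to be read beside the 6.72% higher and 8.06% lower of all genes tested.

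**Figure D1:**
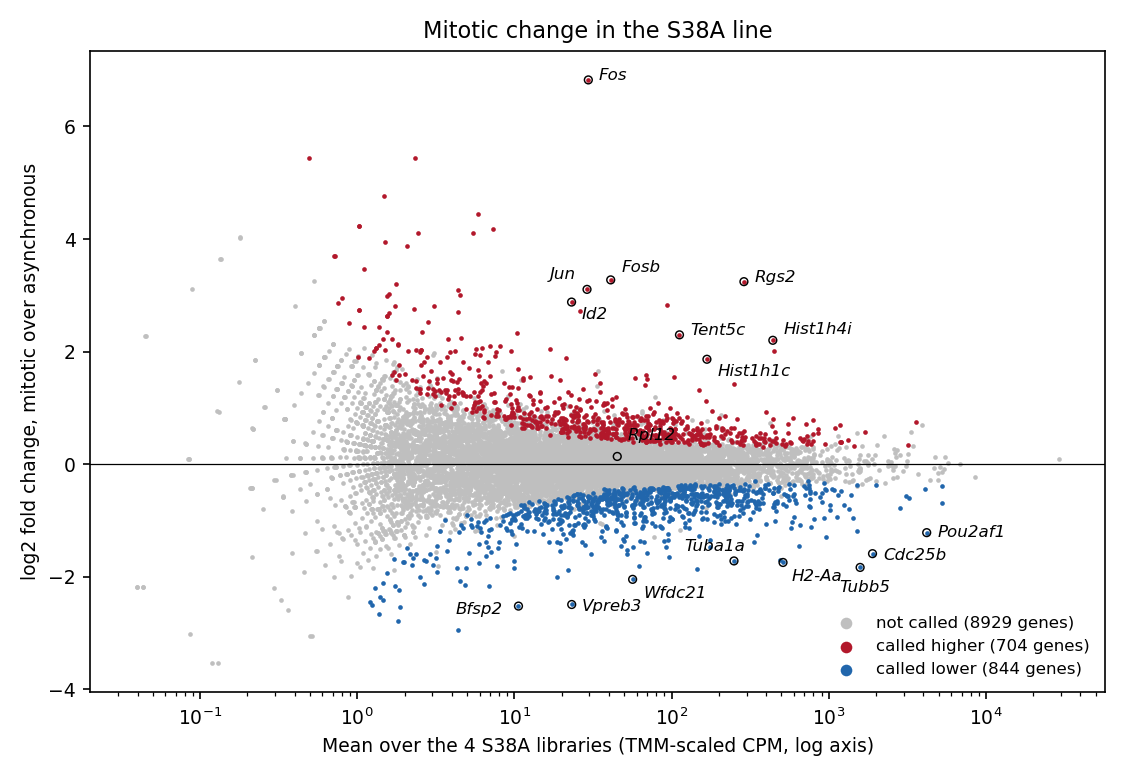
Each point is 1 of the 10477 genes tested, with the mean of the 4 S38A libraries (TMM-scaled CPM, log axis) across and the log2 fold change of mitotic over asynchronous S38A cells upward. Red points are the 704 genes called higher, blue points the 844 called lower and grey points the rest; Fos stands highest among the labelled genes and Rpl12 lies near 0.

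Immediate early genes rose. Of 45 measured, 22 rose and 1 fell, against 6.72% higher and 8.06% lower among all genes tested, and their median log2 fold change was 0.90. AP-1 genes, which encode the paired Fos and Jun transcription factors, led the list. Fos had 0.630 and 0.345 CPM (reads of a gene as a rate of all gene reads, scaled by TMM factors) in the asynchronous libraries, from 4 and 2 reads, and 46.6 and 70.6 CPM in the mitotic ones. As in every called gene, the libraries of the 2 states did not overlap for Fos. Its fitted log2 change was 6.83 (SE 0.343, adjusted p = 3.06e-09). Fosb stood at 7.41 and 7.93 CPM in asynchronous and 70.0 and 78.7 CPM in mitotic cells (log2 change 3.27, SE 0.165, adjusted p = 3.06e-09). Jun went from 5.83 and 6.21 CPM to 45.7 and 58.1 CPM (3.11, SE 0.204, adjusted p = 7.32e-08). Junb was abundant before as well as after, at 217 and 141 CPM against 629 and 819.9 CPM. The call of Junb (2.02, SE 0.413, adjusted p = 0.0221) was lost when any 1 of the 4 S38A libraries was dropped.

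Further members of the list were called higher too. Rgs2, a regulator that switches off G protein signalling, had 59.6 and 50.7 CPM in asynchronous and 511 and 534 CPM in mitotic cells (log2 change 3.24, SE 0.129, adjusted p = 3.15e-10). Id2, an inhibitor of the E protein transcription factors, had 5.83 and 5.17 CPM and then 40.0 and 41.5 CPM (2.88, SE 0.237, adjusted p = 9.13e-07). Dusp1, a phosphatase that acts on MAP kinases, had 5.99 and 7.07 CPM and then 26.9 and 27.1 CPM (2.05, SE 0.273, adjusted p = 0.000125). The nuclear receptor gene Nr4a2 had 9.14 and 8.97 CPM and then 32.7 and 34.2 CPM (1.88, SE 0.21, adjusted p = 2.77e-05). In all of these genes both mitotic libraries were several times above both asynchronous ones. Others called higher were Egr1 (1.42), Ier2 (1.59), Atf3 (2.02), Klf4 (1.21), Zfp36, which binds AU-rich elements (1.34), and Myc (1.08). The 1 member that fell was Mcl1, a survival gene of the BCL2 family with a short-lived mRNA, at 3566 and 3655 CPM in asynchronous and 2176 and 2016 CPM in mitotic cells (-0.78, SE 0.0985, adjusted p = 7.6e-05).

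RefSeq promoter windows (GRCm38.p6, from 250 bases before to 50 after the start site) were at hand for 39 of the 51 listed immediate early genes, in 54 windows. The full cyclic AMP response element TGACGTCA stood in 3 of these windows, and in 1.79% of all 32851 windows, counted on both strands. The CArG box, searched by name, stood in 7 of the 54 windows, which belong to 4 of the 39 genes, and in 1.63% of all. The windows of Fos, Fosb, Jun and Junb held none. The window of Dusp1 is shown for its response element, in capitals (chr17:26508588-26508637, minus strand).
Dusp1 promoter: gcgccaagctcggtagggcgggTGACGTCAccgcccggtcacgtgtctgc
A match describes the letters and says nothing on whether the element was bound in these cells.

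**Figure D2:**
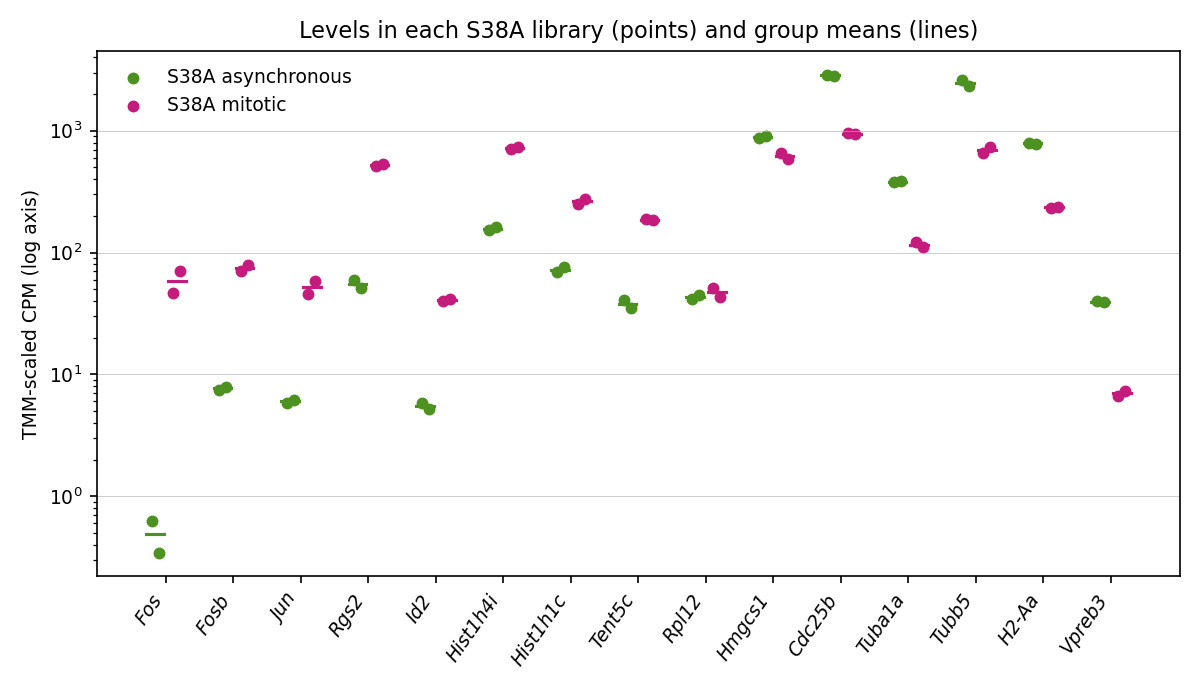
Levels of 15 genes in each S38A library (TMM-scaled CPM, log axis), with green points for asynchronous and pink points for mitotic libraries, and lines for the mean of the 2 libraries. Fos, Fosb, Jun, Rgs2 and Id2 lie higher in both mitotic libraries, Tubb5, Tuba1a, H2-Aa and Vpreb3 lie lower, and the points of Rpl12 overlap.

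Tubulin mRNAs fell. Tubulin genes encode the subunits of microtubules, and their mRNAs are known to be degraded when free tubulin is plentiful, through recognition of the first residues of the newly made chain on the ribosome. Of 9 alpha and beta tubulin genes measured, 7 fell (77.8%) and 0 rose, with a median log2 change of -1.38. Tubb5, a main beta tubulin of lymphoid cells, had 2604 and 2345 CPM in asynchronous and 657 and 732 CPM in mitotic libraries (-1.83, SE 0.137, adjusted p = 3.6e-07). Tuba1c had 2084 and 2154 CPM and then 964 and 889 CPM (-1.19, SE 0.13, adjusted p = 2.11e-05). The mitotic libraries of these genes lay far below the asynchronous ones. Tuba1a had 376 and 389 CPM and then 123 and 110.1 CPM (-1.72, SE 0.107, adjusted p = 4.04e-08). Tuba1b changed by -1.38 (SE 0.121), Tubb2a by -1.60 (SE 0.184), Tubb4b by -1.59 (SE 0.176) and Tubb3 by -0.76. The members not called were Tuba4a, at 1080.4 and 876 CPM on average (-0.30, SE 0.124, adjusted p = 0.117), and Tubb6, which had under 1 CPM in both states.

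The first 10 codons of the called genes are shown because the first 4, in capitals, encode the stretch read in tubulin autoregulation. They are from the GENCODE M21 annotation of GRCm38. Codons of Tuba4a and Tubb6, which were not called, were not looked up, so whether the stretch goes with the fall was not tested.
Tubb5: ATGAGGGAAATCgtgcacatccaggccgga
Tubb4b: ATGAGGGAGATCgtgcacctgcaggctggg
Tubb2a: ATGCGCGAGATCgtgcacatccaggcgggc
Tubb3: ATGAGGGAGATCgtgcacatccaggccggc
Tuba1a: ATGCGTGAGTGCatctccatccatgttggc
Tuba1c: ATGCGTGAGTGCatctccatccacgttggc
Tuba1b: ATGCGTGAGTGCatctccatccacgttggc
The alpha tubulins share the same capital letters, while the beta tubulins, save Tubb3 and Tubb4b, differ among themselves in synonymous positions and from the alpha tubulins in the fourth codon. Alpha tubulin genes are near copies of each other, so reads may be split among them. The handling of reads that match more than 1 place is not given in the sources used here. The same holds for the histone, ribosomal protein, globin and MHC genes named below.

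Some histone genes and small nucleolar RNAs were called higher. Of 25 replication-dependent histone genes measured, 5 rose (20.0%) and 0 fell, with a median of 0.56. Their main transcripts end in a stem-loop without a poly(A) tail, and the tags here come from polyadenylated ends. Hist1h4i had 153 and 162 CPM in asynchronous and 707 and 742 CPM in mitotic cells (log2 change 2.20, SE 0.104, adjusted p = 2.33e-09). The linker histone gene Hist1h1c had 69.0 and 75.7 CPM and then 252 and 275 CPM (1.86, SE 0.111, adjusted p = 2.02e-08). Hist2h2be rose by 1.08 (SE 0.148) and Hist1h2bc by 0.92 (SE 0.147). Small nucleolar RNAs, many of which guide the modification of ribosomal RNA, had few reads. Their tags too come from polyadenylated ends, so these counts may not give the level of the working RNAs. Of 30 that passed the filter 14 were called higher and 0 lower, a count that supports nothing, since several passed only through their mitotic libraries. Snora73b had 52 and 32 reads in asynchronous and 268 and 240 in mitotic libraries (2.72, SE 0.315, adjusted p = 0.000425). Snora30 had 5 and 2 reads and then 56 and 59, and Scarna9 had 5 and 4 reads and then 80 and 74. Snord104 had 152 and 160 reads and then 155 and 138, and was not called. Malat1, a nuclear long noncoding RNA, had 17.6 and 14.3 CPM and then 60.6 and 37.2 CPM (1.61, SE 0.244, adjusted p = 0.000871).

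Genes of B cell identity fell. Of 47 measured, 27 fell (57.4%) and 1 rose (2.13%), with a median of -0.61. Pou2af1, a B cell coactivator of octamer-binding factors, had 5631 and 6120 CPM in asynchronous and 2741 and 2322 CPM in mitotic cells (-1.21, SE 0.126, adjusted p = 1.26e-05). Vpreb3, which encodes a partner of the B cell receptor during its assembly, had 39.7 and 39.0 CPM and then 6.69 and 7.27 CPM (-2.49, SE 0.205, adjusted p = 9.13e-07). The transcription factor gene Spib had 1820 and 1939 CPM and then 1001 and 944 CPM (-0.95, SE 0.109, adjusted p = 3.5e-05). Receptor and signalling genes were among those called lower: Cr2 at -1.13, Syk at -0.94, Cd79b at -0.74, Ms4a1 at -0.73 and Cd22 at -0.64. The 1 member that rose was Irf4, a factor of B cell activation and plasma cells, at 73.6 and 85.2 CPM against 105 and 122 CPM (0.51, SE 0.122, adjusted p = 0.0094), a call lost when asynchronous 1 or mitotic 2 was dropped.

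Germinal centre genes fell alongside, 18 of 29 measured (62.1%) with 0 rising and a median of -0.78. Bach2, a repressor that holds back plasma cell fate, had 30.4 and 29.5 CPM in asynchronous cells and in mitotic cells 8.50 and 6.38 CPM (-2.01, SE 0.228, adjusted p = 3.38e-05). S1pr2, a receptor that confines germinal centre B cells, had 1333 and 1390 CPM and then 572 and 537 CPM (-1.30, SE 0.103, adjusted p = 6.74e-07). Bcl6, the master repressor of the germinal centre, went from 327 to 173 CPM on average (-0.92). Of 16 plasma cell genes measured, 3 rose (18.8%) and 2 fell (12.5%), beside 6.72% and 8.06% of all genes tested. Dropping mitotic 2 left 1 that rose, dropping any 1 S38A library left 1 that fell, and dropping S38D asynchronous 1 or 2 gave 6 that fell. Tent5c, a poly(A) polymerase, had 40.5 and 35.4 CPM and then 188 and 185 CPM (2.30, SE 0.133, adjusted p = 1.64e-08), while Xbp1 changed by -0.67 (SE 0.116).

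In the list for MHC class II and presentation, 10 of 24 measured genes were called lower (41.7%) and 0 higher, with a median of -0.29. Dropping asynchronous 1 or 2 left 7 or 6, and dropping mitotic 1 or 2 left 6. Dropping S38D asynchronous 1 or 2 gave 3 called higher. H2-Aa, an alpha chain of class II, had 799 and 779 CPM in asynchronous and 233 and 238 CPM in mitotic cells (-1.74, SE 0.0994, adjusted p = 1.56e-08). H2-Ob (-1.18), H2-DMb2 (-1.01) and H2-Eb1 (-0.79) fell too. Among the cytokine genes, Ltb and Lta, which shape lymphoid tissue, changed by -1.45 (SE 0.114) and -1.13 (SE 0.245), the latter not called when asynchronous 2 or mitotic 1 was dropped or in DESeq2.

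Cell type markers bear on the labelled tissue. All 8 B cell markers had reads, and their summed level, in CPM of gene reads without TMM scaling, was 3487 and 3406 in asynchronous and 2293 and 2180 in mitotic libraries. Markers of T and NK cells summed to 6.26 to 7.11 CPM with 10 to 13 of 14 at 0, and most of it was Klrb1c. Myeloid markers summed to 6.08 to 10.5 CPM with 8 to 10 of 13 at 0. Stromal and epithelial markers summed to 76.5 to 107 CPM with 7 to 9 of 12 at 0, mostly from Pecam1. Erythroid markers summed to 1184 and 1273 CPM in asynchronous and 757 and 679 in mitotic cells, mostly from the globin gene Hbb-bt, with Hba-a1, Hba-a2 and Epor at 0. Tfrc, the transferrin receptor gene on this list, which proliferating cells also express, went the other way, from 41.3 and 51.9 CPM to 83.3 and 92.9 CPM (log2 change 0.87, SE 0.144, adjusted p = 0.000759). In bulk libraries fewer cells of a type and less RNA per cell cannot be told apart.

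Genes of the cell cycle were lower in the mitotic libraries. G2/M genes, whose mRNAs peak in G2 and mitosis of cycling cells, fell in 21 of 75 cases (28.0%) and rose in 0. Their median was -0.32. Dropping asynchronous 1 or 2 left 12 or 9, and dropping mitotic 1 or 2 left 11 or 10. Cdc25b, a phosphatase that activates CDK1 at mitotic entry, had 2888 and 2816 CPM in asynchronous and 965 and 933 CPM in mitotic cells (-1.59, SE 0.123, adjusted p = 5.17e-07). Nusap1, a spindle protein gene, had 169 and 163 CPM and then 77.6 and 76.4 CPM (-1.11, SE 0.136, adjusted p = 6.58e-05). Ccnb1, the mitotic cyclin, had 113 and 108 CPM and then 71.6 and 71.4 CPM (-0.63, SE 0.128, adjusted p = 0.0033). Top2a changed by -0.72 (SE 0.123) and Spc25 by -0.97 (SE 0.166), and Ccna2 by 0.26 (SE 0.107, adjusted p = 0.127). That the cells were in mitosis rests on their label.

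Of 72 G1/S and DNA replication genes, 19 fell (26.4%) and 1 rose (1.39%), with a median of -0.19. Dropping asynchronous 1 or 2 left 12 or 11 that fell, and dropping mitotic 1 or 2 left 11. Dnmt1, which maintains DNA methylation behind the replication fork, had 875 and 706 CPM in asynchronous and 344 and 376 CPM in mitotic cells (-1.13, SE 0.174, adjusted p = 0.00094). E2f2, an activator of S phase genes, had 274 and 234 CPM and then 139 and 131 CPM (-0.92, SE 0.12, adjusted p = 0.000114). Clspn, an adaptor of the replication checkpoint, changed by -0.73 (SE 0.124), and Rfc1, the large subunit of the clamp loader, by -0.93 (SE 0.149).

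Ribosome biogenesis genes were called higher in 31 of 103 cases (30.1%) and lower in 0, with a median of 0.38. Dropping asynchronous 1 or 2 left 10 or 17, and dropping mitotic 1 or 2 left 16 or 12. Gnl3, a nucleolar GTPase, had 43.2 and 49.0 CPM in asynchronous and 80.5 and 83.0 CPM in mitotic cells (0.83, SE 0.13, adjusted p = 0.000498). Rcl1, which works in the maturation of small subunit RNA, had 346 and 321 CPM and then 524 and 542 CPM (0.68, SE 0.11, adjusted p = 0.000602). The helicase gene Ddx51 had 14.7 and 12.1 CPM and then 28.4 and 27.8 CPM (1.07, SE 0.172, adjusted p = 0.000567). Polr1a, the largest subunit of RNA polymerase I, went from 33.8 to 63.2 CPM on average (0.90). Among mitochondrial ribosomal protein genes 8 of 74 were called higher (10.8%) and 1 lower (1.35%), beside 6.72% and 8.06% of all genes tested. Of the higher calls dropping asynchronous 1 or 2 left 0 or 4, dropping mitotic 1 or 2 left 1 or 3, and dropping S38D asynchronous 1 or 2 gave 15.

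Cytosolic ribosomal protein genes were called about as often as all genes. Of 80 measured, 6 rose and 4 fell, and the median of 0.06 changed sign under other settings. With any 1 S38A library dropped 2 or 3 rose, and 2 fell without mitotic 1 and 0 without the others. Rpl12 itself (chromosome 2, 32961559 to 32965345) had 41.3 and 44.7 CPM in asynchronous and 51.3 and 43.3 CPM in mitotic S38A cells. These libraries overlapped, and the log2 change of Rpl12, 0.14 (SE 0.159, adjusted p = 0.623) was not called. The Rpl12 change was 0.90 in WT and 0.78 in S38D, and the difference of S38A from WT was -0.76 (SE 0.227, adjusted p = 0.106). The stalk partners were not called in S38A either. Rplp0 had 2281 and 2427 CPM and then 2569 and 2307 CPM (0.05, SE 0.112), Rplp1 changed by 0.13 (SE 0.114) and Rplp2 by 0.17 (SE 0.12). The ribosomal protein gene that rose most among those above 10 CPM was Rpl18, at 34.3 and 26.0 CPM against 92.6 and 82.3 CPM (1.53, SE 0.145, adjusted p = 4.95e-06). Of 54 translation factor genes, 2 rose (3.70%) and 1 fell (1.85%), below the 6.72% and 8.06% of all genes tested. Dropping S38D asynchronous 1 or 2 gave 4 or 5 that rose and 9 that fell. The one that fell was Eef2, the elongation factor that drives translocation and docks at the stalk, at 6646 and 6322 CPM in asynchronous and 4083 and 3960 CPM in mitotic cells (-0.69, SE 0.116, adjusted p = 0.00082).

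Cholesterol biosynthesis genes fell in S38A mitotic cells. These enzymes build sterols from acetyl-CoA through mevalonate, squalene and lanosterol, and SREBP2 turns their genes on when membrane sterol is low. Of 28 measured, 14 fell (50.0%) and 0 rose, 27 had a fitted change below 0, and the median was -0.46. Dropping asynchronous 1 or 2 left 10 or 12, and dropping mitotic 1 or 2 left 13 or 7. At the entry of the pathway Hmgcs1 had 878 and 904 CPM in asynchronous and 661 and 590.0 CPM in mitotic libraries (-0.51, SE 0.103, adjusted p = 0.0033). In the mevalonate steps Mvk went from 82.2 to 48.6 CPM on average (-0.76) and Mvd from 1062 to 543 CPM (-0.97). Fdft1, which makes squalene, had 173 and 184 CPM and then 112 and 87.0 CPM (-0.84, adjusted p = 0.000887), and Sqle, which oxidises it, had 205 and 226 CPM and then 131 and 133 CPM (-0.71, SE 0.121, adjusted p = 0.000887).

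Later enzymes were called lower too. Cyp51, which demethylates lanosterol, had 1029 and 1085 CPM in asynchronous and 778 and 639 CPM in mitotic libraries (-0.58, SE 0.115, adjusted p = 0.0029). Msmo1 had 722 and 701 CPM and then 523 and 467 CPM (-0.52, SE 0.101, adjusted p = 0.0023), and Nsdhl, which acts after it, had 166 CPM in both and then 89.1 and 93.6 CPM (-0.86, SE 0.107, adjusted p = 7.08e-05). The calls of Cyp51 and Hmgcs1 were lost when mitotic 2 was dropped. In each of these genes both mitotic libraries lay below both asynchronous ones, which held for every gene called lower. Of all genes tested 30.8% were separated in this way. Srebf2, which encodes SREBP2 itself, changed by -0.34 (SE 0.347, adjusted p = 0.593) and was not called. The desaturase genes Scd1 (-0.56) and Scd2 (-0.68), which serve fatty acid synthesis, fell too.

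Promoter windows of 4 of these genes are shown for the letters that SREBP2 and its partner NF-Y are known to bind, on either strand. Capitals mark the sterol regulatory element TCACNCCAC and the box CCAAT or its complement ATTGG.
Hmgcs1 (chr13:119690166-119690320, plus strand): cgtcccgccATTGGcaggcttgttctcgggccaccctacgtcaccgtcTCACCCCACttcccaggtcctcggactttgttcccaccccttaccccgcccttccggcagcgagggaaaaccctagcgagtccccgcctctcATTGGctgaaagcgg
Cyp51 (chr5:4104708-4104767, minus strand): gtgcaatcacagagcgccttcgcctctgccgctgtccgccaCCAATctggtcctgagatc
Msmo1 (chr8:64733619-64733748, minus strand): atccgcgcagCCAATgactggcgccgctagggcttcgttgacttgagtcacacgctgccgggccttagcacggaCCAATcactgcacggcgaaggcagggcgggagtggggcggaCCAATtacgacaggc
Nsdhl (chrX:72918401-72918510, plus strand): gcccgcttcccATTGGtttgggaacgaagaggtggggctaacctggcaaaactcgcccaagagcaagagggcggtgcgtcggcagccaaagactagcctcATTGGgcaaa
Windows were at hand for 19 of the 29 listed genes, 22 windows in all. The box CCAAT stood in 18 of the 22, from 18 genes, and in 37.4% of all 32851 RefSeq windows of this length. The sterol element in this strict form stood in 1 of the 22, that of Hmgcs1, and in 1.24% of all windows.

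In the other lines the same genes gave other values. In WT mitotic cells 13 of the 28 rose and 2 fell, with a median of 0.35, and in S38D 2 rose and 9 fell, with a median of -0.27. Of all genes tested 26% were called in WT, 13.4% higher and 12.7% lower, and 26.4% in S38D, 11.6% higher and 14.8% lower. The WT values depend on the scaling, since with libraries scaled to the spike-ins 1 rose and 4 fell and the median was -0.10, beside -0.46 for all genes. In S38A the median with this scaling was -0.44, beside 0.03 for all genes. The difference between lines was tested itself. Of the 28 genes, 15 were called lower in the S38A change minus the WT change and 0 higher. Of all genes tested 0.496% were called lower and 0.496% higher. The median difference of the 28 was -0.73. It was largest for Mvd (-1.58), Fdft1 (-1.57) and Dhcr7 (-1.53), the reductase of the last step. No member was called in the S38A change minus the S38D change by edgeR, DESeq2 or limma-voom, with a median difference of -0.20. Without S38D asynchronous 1 and WT mitotic 1 together 5 were called lower (median -0.31), and without S38D asynchronous 1 or 2 alone 1 or 2 were.

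That count of 15 rests on single libraries. Dropping S38A asynchronous 1 or 2, S38A mitotic 2, WT asynchronous 1 or 2, or WT mitotic 1 left 5. Dropping S38A mitotic 1 left 8, S38D mitotic 1 or 2 left 7 or 8, WT mitotic 2 left 14, and S38D asynchronous 1 or 2 gave 20. Scaled to the spike-ins it was 6, with a median of -0.27 beside 0.46 for all genes. It was 8 in limma-voom and 21 without S38D asynchronous 1 and WT mitotic 1 together, and in each of these settings 0 members were called higher.

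**Figure D3:**
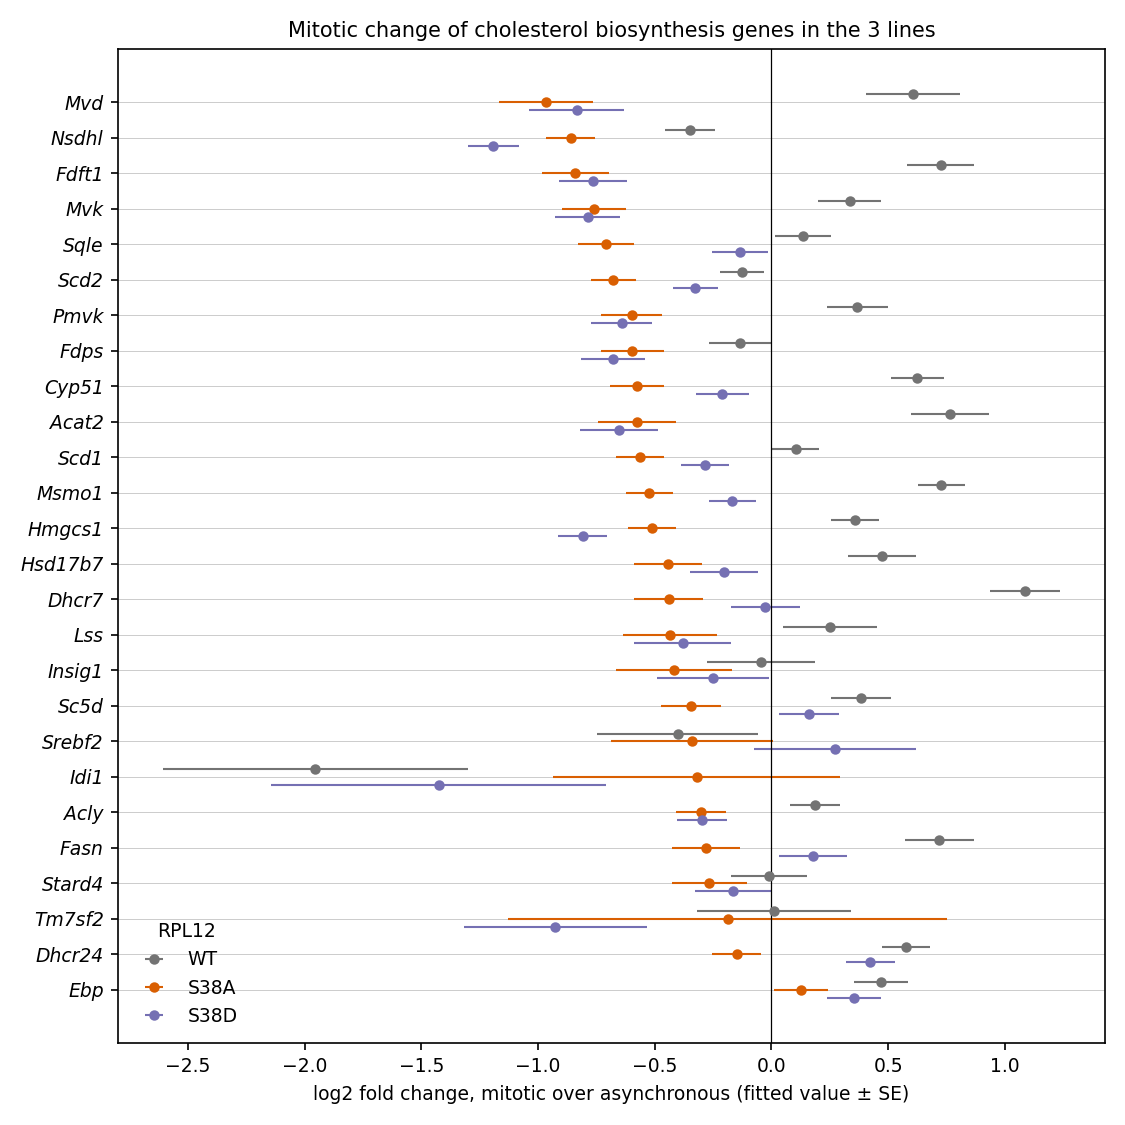
Fitted log2 fold change of mitotic over asynchronous cells, with its SE, for 26 of the 28 cholesterol biosynthesis genes measured, in WT (grey), S38A (orange) and S38D (violet) cells. In S38A 25 of the 26 points lie below 0. The median over all 28 genes was -0.46 in S38A and 0.35 in WT. With spike-in scaling the WT median of the 28 was -0.10, beside -0.46 in WT for all genes tested.

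Stress and metabolic genes moved in smaller numbers, to be read beside 6.72% higher and 8.06% lower among all genes tested. Proteasome genes, given last here, were called higher at 6.98%, about as often as all genes. Targets of ATF4, which acts in the integrated stress response, were called lower in 8 of 41 cases and higher in 0, with a median of -0.28. Dropping asynchronous 1 or 2 left 3, dropping mitotic 1 or 2 left 4 or 2, and dropping S38D asynchronous 1 or 2 gave 20 or 19. Ddit4, an inhibitor of mTORC1, had 639 and 577 CPM in asynchronous and 303 and 305 CPM in mitotic cells (-1.0, SE 0.102, adjusted p = 1e-05). Atf5 had 1349 and 1252 CPM and then 746 and 728 CPM (-0.82, SE 0.121, adjusted p = 0.000302). In the heat shock and chaperonin list 7 of 31 were called higher and 1 lower. Of the higher calls dropping asynchronous 1 or 2 left 0 or 2, and dropping mitotic 1 or 2 left 0 or 1. Of 20 glycolysis genes 2 rose and 4 fell, with Aldoa at 721 and 769 CPM against 465 and 499 CPM (-0.63, SE 0.106), and dropping any 1 S38A library left 2 that fell. Dropping S38D asynchronous 1 or 2 gave 4 glycolysis genes that rose and 3 of the chaperone list that fell. FOXO targets, which PI3K holds down, rose in 5 of 19 cases and fell in 2, with 2 or 4 rising when asynchronous 1 or 2 was dropped and 3 when mitotic 1 or 2 was. Klf2, which keeps lymphocytes quiescent, went from 13.7 CPM on average to 33.4 and 31.4 CPM (1.24, SE 0.201, adjusted p = 0.000602). Irs2, an adaptor of the insulin receptor, had 95.2 and 76.9 CPM and then 207 and 221 CPM (1.31, SE 0.136, adjusted p = 1.18e-05). Of 24 p53 targets 3 fell and 0 rose, with a median of 0.02, and 1 fell when asynchronous 1, mitotic 1 or mitotic 2 was dropped, while 2 rose without S38D asynchronous 1 or 2. Trp53inp1, a p53 target of autophagy, had 13.1 and 9.48 CPM and then 3.07 and 1.95 CPM (-2.16, SE 0.331, adjusted p = 0.000407). Proteasome genes were called higher in 3 of 43 cases and lower in 0, with 1 left when asynchronous 1 or 2 or mitotic 2 was dropped and 5 when S38D asynchronous 1 or 2 was.

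Enzymes of serine and one-carbon metabolism, which feed nucleotide synthesis, were called in both directions, 2 of 15 higher (13.3%) and 4 lower (26.7%). Dropping any 1 S38A library left 1 higher and 0 lower. Gcsh, the lipoyl carrier of glycine cleavage, had 74.4 and 75.7 CPM in asynchronous and 143 and 139 CPM in mitotic cells (0.91, SE 0.127, adjusted p = 0.000177). The cytosolic Shmt1 changed by 0.48 (SE 0.118) and its mitochondrial counterpart Shmt2 by -0.61 (SE 0.147), and both calls were lost when any 1 S38A library was dropped. Among glycolysis genes Slc16a3, a lactate exporter, had 5.83 and 6.04 CPM and then 17.9 and 15.8 CPM (1.5, SE 0.224, adjusted p = 0.000321), while Aldoc had 54.4 and 49.3 CPM and then 26.4 and 21.98 CPM (-1.10, SE 0.178, adjusted p = 0.000602). Among chaperones Dnaja2 changed by 0.46 (SE 0.104), and the 1 member called lower was the constitutive Hspa8 at -0.48 (SE 0.11).

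Among apoptosis regulators 2 of 26 were called higher and 3 lower, shares near those of all genes. With asynchronous 1 or 2 or mitotic 1 left out 0 were higher, and dropping mitotic 2 or any 1 WT library or 1 S38D mitotic library left 1. Bcl2, which protects from death, had 8.19 and 8.45 CPM in asynchronous and 16.1 and 12.9 CPM in mitotic cells (0.80, SE 0.218, adjusted p = 0.0208), and its antagonist Bad had 282 and 278 CPM and then 191 and 189 CPM (-0.56, SE 0.113, adjusted p = 0.0035). The Bcl2 call was lost in DESeq2 and when asynchronous 1, asynchronous 2 or mitotic 1 was dropped. RNA splicing kinases and SR factors were called higher in 5 of 30 cases (16.7%) and lower in 2 (6.67%). When any 1 S38A library was dropped 1 was higher. Luc7l2, a component of the U1 particle, had 147 and 149.5 CPM and then 229 and 243 CPM (0.67, SE 0.103, adjusted p = 0.000421). Of 48 nucleocytoplasmic transport genes 5 rose (10.4%, beside 6.72% of all genes tested) and 0 fell. Dropping asynchronous 1 or 2 left 0 or 2 that rose, and dropping mitotic 1 or 2 left 1. Tnpo1, an import receptor, had 52.3 and 53.6 CPM and then 86.8 and 89.5 CPM (0.73, SE 0.148, adjusted p = 0.0033), a call lost without asynchronous 1. Of 17 interferon-stimulated genes 1 rose (5.88%) and 3 fell (17.6%). Among them 1 fell when any 1 S38A library was dropped and 7 when S38D asynchronous 1 or 2 was. Samhd1, which breaks down deoxynucleotides, had 205 and 215 CPM and then 136 and 140.1 CPM (-0.60, SE 0.102, adjusted p = 0.000856).

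Outside the lists, the fall was steepest among genes above 10 CPM for Bfsp2, a lens filament gene, at 16.7 and 19.5 CPM in asynchronous and 3.80 and 2.48 CPM in mitotic cells (-2.52, SE 0.303, adjusted p = 5.48e-05). Wfdc21, a secreted protein gene, had 90.3 and 91.7 CPM and then 26.4 and 17.7 CPM (-2.04, SE 0.196, adjusted p = 9.83e-06). Hmces, which shields abasic sites in DNA, had 754 and 745 CPM and then 256 and 208 CPM (-1.69, SE 0.128, adjusted p = 3.85e-07). Zc3h12d, a ribonuclease gene of lymphocytes, had 96.9 and 96.7 CPM and then 28.6 and 26.9 CPM (-1.80, SE 0.178). Fam43a rose from 3.78 and 3.10 CPM to 18.3 and 16.5 CPM (2.32, SE 0.249, adjusted p = 1.83e-05). Alg10b, which adds the last glucose of the N-glycan precursor, had 4.73 and 5.17 CPM and then 15.5 and 16.7 CPM (1.70, SE 0.253, adjusted p = 0.000322).

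**Figure D4:**
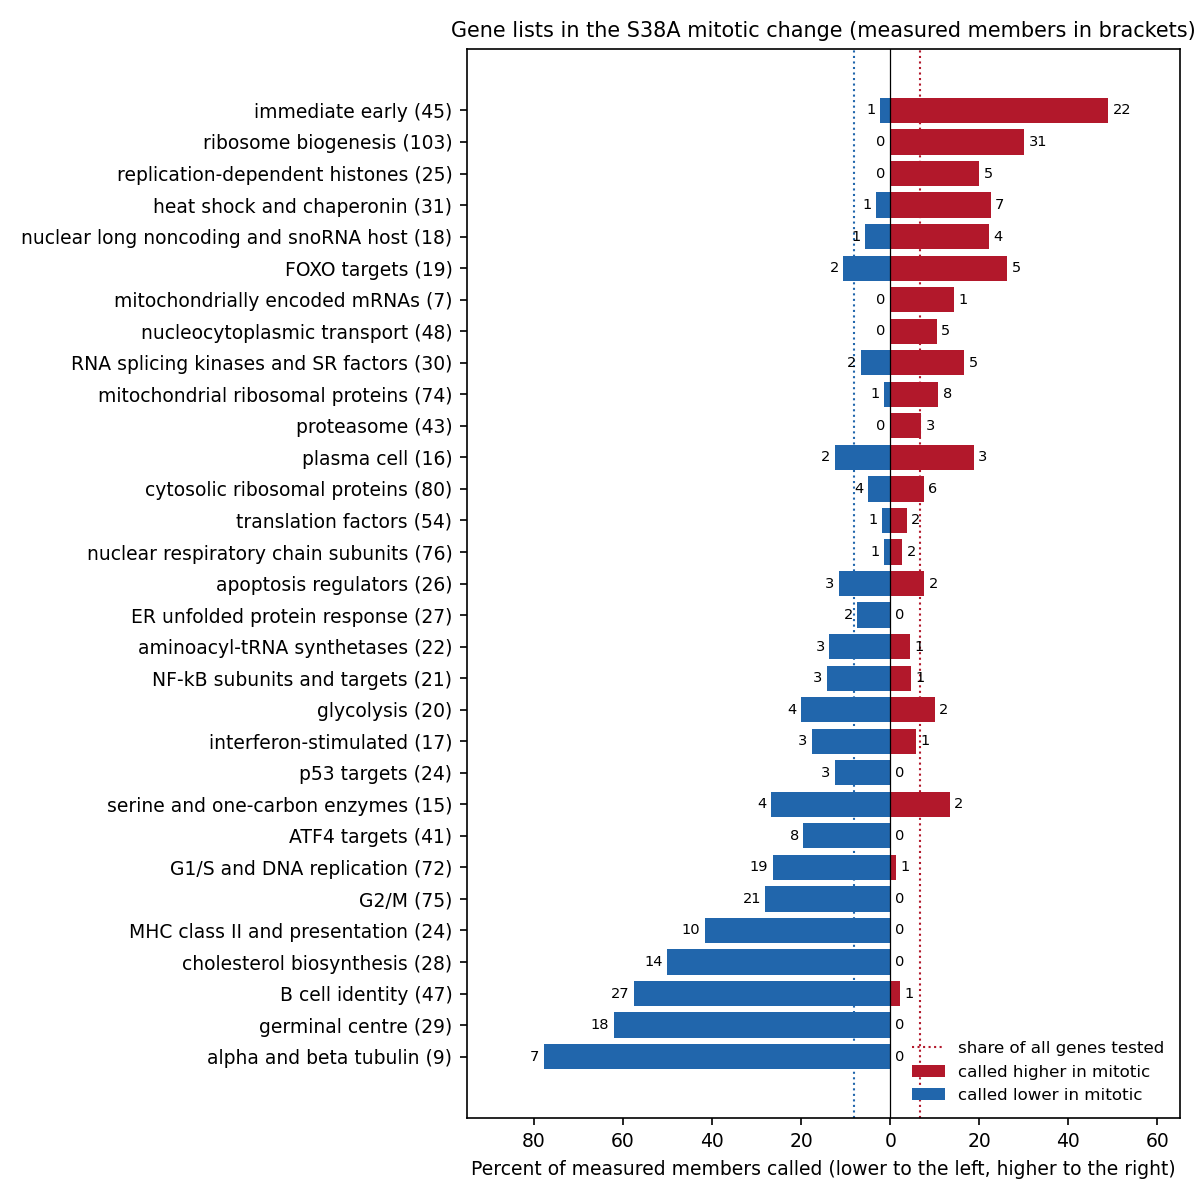
Share of the measured members of each of 31 gene lists called higher (red, to the right) or lower (blue, to the left) in S38A mitotic cells, in percent, with the number of genes called at the end of each bar. Dotted lines mark the 6.72% and 8.06% of all genes called higher and lower; the immediate early list has 22 genes to the right and the tubulin list 7 to the left.

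The last comparison asked where the S38A change differed from the other lines. Set against the mean of the WT and S38D changes, 10 of 10477 genes were called (0.0954%), 5 above (0.0477%) and 5 below (0.0477%), and 1248 had an unadjusted p under 0.05. Above were Marcks, Top1, Hmox1, Adm and Hist1h1c, and among those below were Zfas1, Msmo1, Cyp51 and Neu1. Hmox1, which breaks down haem, had 167 and 169 CPM in asynchronous and 243 and 272 CPM in mitotic S38A cells. It changed by 0.62 in S38A, -0.69 in WT and -0.04 in S38D, a difference of 0.98 (SE 0.148, adjusted p = 0.0348). The S38A call of Hmox1 was lost without asynchronous 1 or mitotic 2, and that of Top1 without mitotic 2. Marcks, a substrate of protein kinase C at the membrane, had 21.6 and 19.0 CPM and then 43.4 and 55.5 CPM, and its change was 1.28 in S38A, -0.69 in WT and 0.66 in S38D (difference 1.30, SE 0.22, adjusted p = 0.0348). Adm, which encodes the vasodilator peptide adrenomedullin, had 83.2 and 76.9 CPM and then 142 in both, while WT held 557 and 588 CPM on average (difference 0.88, SE 0.15, adjusted p = 0.0348).

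Top1, the topoisomerase that relaxes DNA during transcription, fell in all lines but by less in S38A, from 264 and 303 CPM to 193 and 144 CPM. Its change was -0.75 in S38A, -1.57 in WT and -1.99 in S38D (difference 1.03, SE 0.177, adjusted p = 0.0348). Zfas1, a noncoding host of small nucleolar RNAs, had 528 and 548 CPM and then 506 and 460.2 CPM in S38A (-0.16, adjusted p = 0.388). It changed by 0.30 in WT and 1.08 in S38D, and the difference was -0.84 (SE 0.135, adjusted p = 0.0348). Neu1, a lysosomal sialidase, had 228 and 198 CPM and then 147 and 142 CPM in S38A. Its change was -0.56 in S38A, 0.37 in WT and 0.06 in S38D (difference -0.77, SE 0.132, adjusted p = 0.0348). On average Neu1 went from 112 to 145 CPM in WT and from 151 to 157 CPM in S38D. The mitotic means of S38A and WT were thus alike, and the asynchronous means were not.

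The number of these calls depended on how the data were treated. It was 10 with the replicate block, 12 with DESeq2 size factors, 16 with the 10 CPM filter and 144 with no filter. Limma-voom called 0 genes and edgeR without robust estimation 0, with 1260 and 1237 at an unadjusted p under 0.05, while DESeq2 called 30. With any 1 S38A library dropped, or S38D mitotic 1 or 2, WT asynchronous 1 or 2 or WT mitotic 1, edgeR called 0 genes. It called 7 with WT mitotic 2 dropped, 635 or 136 with S38D asynchronous 1 or 2 dropped, and 785 with S38D asynchronous 1 and WT mitotic 1 both dropped. With spike-in scaling 7 were called, 7 above and 0 below, and the median of all genes was 0.33. Against WT alone the main test called 104 genes (0.993%), 52 above and 52 below, and 482 and 9 with spike-in scaling. Against S38D alone it called 4 (0.0382%), with Ackr4, Top1 and Trib3 above (0.0286%) and Zfas1 below (0.00954%), and 852 had an unadjusted p under 0.05. Of the genes named as differing from the mean of the other lines, Top1 and Zfas1 were called against S38D but not WT. The rest of them were called against WT but not S38D.

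**Figure D5:**
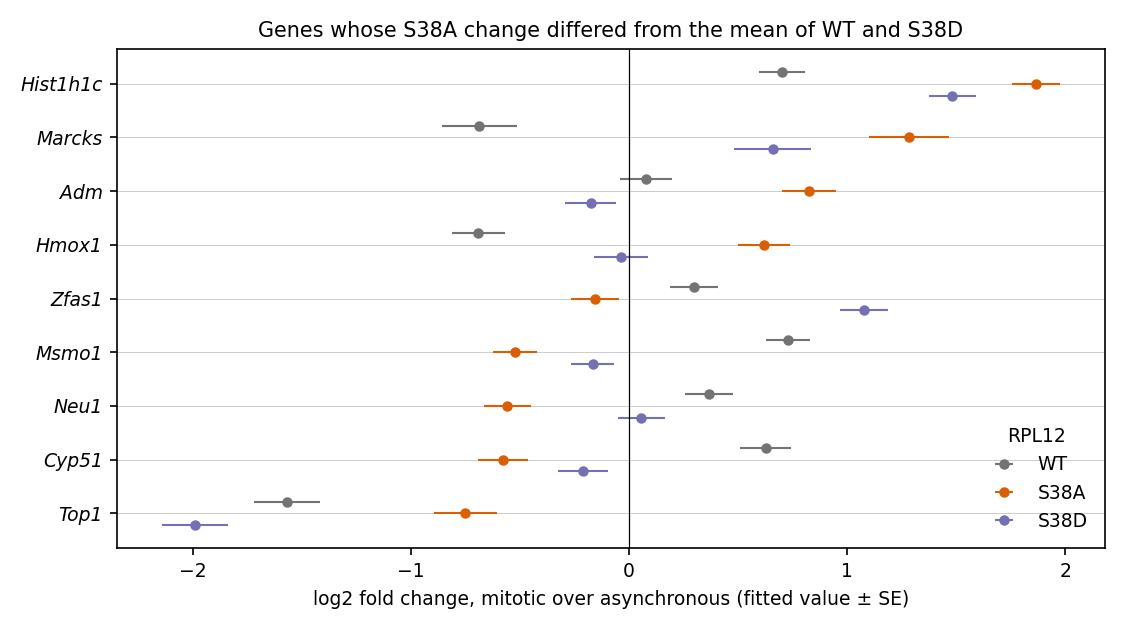
Fitted log2 fold change of mitotic over asynchronous cells, with its SE, in WT (grey), S38A (orange) and S38D (violet) cells for 9 of the 10 genes called in the S38A change minus the mean of the other changes. The fitted values of Hist1h1c, Marcks, Adm, Hmox1 and Top1 lie higher in S38A than in both other lines. Those of Zfas1, Msmo1, Neu1 and Cyp51 lie lower. Tested against each line singly, Top1 and Zfas1 were called against S38D but not WT, and the rest of the 9 against WT but not S38D. With spike-in scaling the genes called were 7 above and 0 below.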

How the data were processed

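The deposited files hold counts, 1 file per library: whole reads per gene for 51826 gene identifiers and 92 spike-ins, not normalized by the authors. Tools in the submitters' processing notes are bcl2fastq 2.16.0.10, cutadapt 1.12 and STAR 2.5.3a, with build mm10; no counting program, strand setting or annotation is given in the sources used here. GENCODE M21 (GRCm38) named 51633 identifiers (99.63%). Genes were filtered with filterByExpr (minimum count 10), which left 10477, and all 12 libraries were fitted in edgeR 4.0.16 (R 4.3.3) with TMM factors, 1 mean per group and robust quasi-likelihood F tests (6 residual degrees of freedom, prior degrees of freedom 9.95). Benjamini-Hochberg adjustment ran over the 10477 genes, with calls under 0.05. Scripts were tested on simulated data.

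The comparison, the gene lists and the members were chosen with earlier results of these data known. Named genes are Rpl12 and its stalk partners, the 15 called genes with the largest change in each direction at a mean of 10 CPM, the 4 members of each list with the smallest adjusted p, and genes called in the difference between lines. Other list members, given mostly with a change alone, and the small RNAs were chosen after their values were seen, and the alternatives were run for named genes alone. A few genes that the rule names are not reported here.

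Alternatives were DESeq2 1.42.0, limma-voom 3.58.1, DESeq2 size factors, spike-in scaling, other filters, robust estimation off, only the groups compared, a replicate block, each library left out and S38D asynchronous 1 and WT mitotic 1 left out together. A covariate for the main axis of spread within groups and a crossed block were added after seeing the data. With 1 library left out, the lone library of its group is assumed to vary like the others.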

Additional observations from a re-analysis of the deposited data

Results flagged for a closer look

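The values here are differences between lines in the log2 mitotic change, each past an adjusted p of 0.05 in edgeR's test of the difference itself, for genes named above. They compare changes and not levels, and asynchronous levels differed between lines. Hist1h1c averaged 263 CPM in S38A mitotic cells, below 291 CPM in WT and 511 CPM in S38D mitotic cells. Its asynchronous means were 72.4 CPM in S38A, 179 CPM in WT and 183 CPM in S38D. Against the mean of the WT and S38D changes, S38A was higher for Marcks (1.30), Top1 (1.03), Hmox1 (0.98), Adm (0.88) and Hist1h1c (0.77), and lower for Zfas1 (-0.84), Msmo1 (-0.80), Cyp51 (-0.78) and Neu1 (-0.77).

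Against WT alone S38A was higher for Marcks (1.97), Nr4a2 (1.36), Hmox1 (1.31), Hist1h1c (1.16), the proteasome subunit gene Psmc6 (0.88) and Adm (0.75). It was lower for the lens filament gene Bfsp2 (-2.44), Fdft1 (-1.57), Msmo1 (-1.25), Cyp51 (-1.20), Neu1 (-0.92), Hmgcs1 (-0.87), Tuba1a (-0.85) and Sqle (-0.84). Bfsp2 went from 18.1 to 3.14 CPM on average in S38A and from 2.84 to 2.67 CPM in WT.

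Against S38D alone S38A was higher for the chemokine scavenger gene Ackr4 (1.94), Top1 (1.24) and the pseudokinase gene Trib3 (1.20), and lower for Zfas1 (-1.23). With spike-in scaling the median of all genes moved to 0.33 against the mean of the other lines, 0.46 against WT and 0.16 against S38D, and no gene was called against S38D, with 787 at an unadjusted p under 0.05.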

How the results depend on the processing

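The number of genes called in S38A mitotic cells was 1548, with 704 higher and 844 lower. It was 942 with DESeq2 (373 higher), 932 with spike-in scaling (419 and 513), 2555 with only the groups compared (1214 and 1341), 3366 with the covariate for the spread within groups (1652 and 1714) and 2914 without S38D asynchronous 1 and WT mitotic 1 (1292 and 1622). Dropping 1 library gave 625 to 2454 called, 211 to 1061 higher and 366 to 1410 lower. The cause was not tested, save that fewer libraries enter when some are dropped. The S38A change minus the mean of the other changes gave 10 called genes. It gave 30 with DESeq2, 0 with limma-voom, 0 with robust estimation off, 16 with the 10 CPM filter, 144 with no filter, 1132 with the covariate, 785 without both libraries, and 0 to 635 with 1 library dropped. Minus the WT change it gave 104, and 25 with limma-voom, 26 with robust estimation off, 616 with no filter, 939 with only the groups compared, 491 with spike-in scaling, 2510 with the covariate, 795 without both libraries, and 6 to 1285 with 1 dropped. Minus the S38D change it gave 4, and 8 with DESeq2, 1 with limma-voom, 1 with robust estimation off, 23 with no filter, 2 with only the groups compared, 0 with spike-in scaling, 702 with the covariate, 157 without both libraries, and 0 to 323 with 1 dropped. No named gene changed sign under any setting run except Rpl12 and Rplp0, neither called, whose change ran from -0.01 to 0.23 and from -0.05 to 0.10.

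The labels do not say what replicate numbers share. Over 7062 genes the deviations of same-numbered libraries correlated at 0.787 between S38D asynchronous and WT mitotic cells, and at 0.593 and 0.551 between these groups and S38A mitotic cells. The other 12 of 15 pairs of groups lay from -0.40 to 0.043, with -0.37 between S38A asynchronous and mitotic cells, so the numbers were not taken to pair the samples. The replicate block gave 1648 called genes, and 10, 154 and 5 for the differences above. With the pairing crossed in S38A asynchronous cells these were 1796, 33, 234 and 6. At 5594973 to 6587997 gene reads per S38A library, a count of 0 allows a level of up to 0.455 to 0.536 CPM (3 reads), for counting error only. Limits that hold throughout are 2 libraries per group, a spread shared with groups whose replicates stood apart, and 3′ tags that show no codon.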

Other observations

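The genes called in the S38A change minus the WT change outside the lists above were chosen for this paragraph after their values were seen. Among the 52 genes above WT, Cntrob and Birc2 each had their own highest group mean in WT asynchronous cells, as did Marcks and Hmox1. Cntrob, a centriole gene, had 1.58 and 1.21 CPM in S38A asynchronous and 1.08 and 3.01 CPM in S38A mitotic libraries, against 23.3 ± 1.95 CPM in WT asynchronous and 1.43 ± 0.151 CPM in WT mitotic cells (SD, n = 2), and S38D held 2.0 ± 1.92 and 2.20 ± 0.483 CPM. Birc2, an inhibitor of apoptosis, had 7.09 and 6.90 CPM and then 10.9 CPM on average in S38A, against 22.4 ± 2.04 and 6.53 ± 0.69 CPM in WT, and S38D held 9.44 ± 3.90 and 8.30 ± 2.25 CPM. Neither gene was called in the S38A change itself. Ide, a protease that degrades insulin, rose in S38A, from 8.04 and 8.97 CPM to 19.0 and 22.2 CPM (log2 change 1.27, SE 0.206, adjusted p = 0.000593), and was high in both WT states, at 40.1 ± 2.53 and 30.5 ± 6.83 CPM in WT.

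Below WT stood further lipid genes. Erg28, which tethers sterol enzymes, had 639 and 625 CPM in S38A asynchronous and 436 and 432 CPM in S38A mitotic cells, and its change differed from that of WT by -0.85 (adjusted p = 0.0143). Aacs, which makes acetoacetyl-CoA for lipid synthesis, had 87.6 and 87.4 CPM and then 55.7 and 51.2 CPM (difference -0.86, SE 0.167, adjusted p = 0.0252). Scarb1, the HDL receptor, had 86.2 and 89.2 CPM and then 102 and 104 CPM in S38A, and 86.4 ± 2.79 and then 178 ± 16.5 CPM in WT (difference -0.81, SE 0.167, adjusted p = 0.03). With spike-in scaling the median of all genes in this difference was 0.46. The globin gene Hbb-bt was called lower in S38A mitotic cells, at 1141 and 1218 CPM in asynchronous and 673 and 585 CPM in mitotic libraries without TMM scaling, with the alpha globin genes at 0.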
